A study of Homo sapiens and Mus musculus with 20 samples.

Results

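SLITRK1, SLITRK3, SLITRK5 and SLITRK6 were examined as 4 of the 20136 protein-coding genes in the annotation, each with its gene body and 500 kb of sequence on either side. The 4 windows do not overlap each other and together hold 3.93 Mb of assembled sequence, 0.138% of the assembled genome. Satb1 binding in them was read from 5 ChIP-seq peak lists and chromatin accessibility from 2 ATAC-seq peak lists, all from MCF10A, an untransformed line of human breast epithelium in which Satb1 is not natively expressed. The windows held 78 of the 22877 peaks of full-length Satb1 (FL). They held 129 of 50537 peaks of Satb1 without its homeodomain (∆HD) and 170 of 62856 peaks of the N-terminal domain joined to the first CUT domain (N-C1). After 2 h of drug treatment of cells expressing FL, 104 of 24475 peaks fell in the windows with camptothecin, a topoisomerase I inhibitor, and 147 of 37350 with ICRF-193, a topoisomerase II inhibitor. ATAC-seq gave 101 of 175989 peaks in native cells and 103 of 206170 in cells expressing Satb1.

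All constructs were eGFP fusions under a cumate-inducible lentiviral promoter, stably integrated into a population of cells sorted through the same fluorescence gate, and were precipitated with a GFP antibody. The protein is therefore ectopic in these cells, and every ChIP-seq list shares that background. There was 1 list per condition and no replicate number, so the lists do not show the spread between replicates. Differences between lists were not tested. The paper reports highly correlated ChIP-seq replicates for the untreated constructs, but peak lists of single replicates were not among those used here. Ranges in parentheses after a share are its exact 95% interval (Clopper-Pearson). They reflect the counting of peaks or of consensus matches alone. Neighbouring peaks, and matches in the same peak, are not independent. Fold enrichment is the peak caller's ratio of the ChIP-seq pileup to the local background. It ranks the peaks of its own list, and values of different lists are set side by side without forming ratios. The depth of the individual lists is unknown, depth alone can change the number of peaks, and the absence of a peak does not show that Satb1 was not bound.

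SLITRK genes encode single-pass transmembrane proteins with leucine-rich repeats outside the cell. At synapses they act as postsynaptic organizers that bind receptor tyrosine phosphatases such as PTPRD and PTPRS on the opposite cell, and SLITRK6 also has roles outside the brain, in the inner ear and eye. The genes are compact, with their coding sequence in a single exon, and most of them lie alone in long stretches without other protein-coding genes. Satb1 is a chromatin organizer of thymocytes that binds A/T-rich DNA through its CUT domains and homeodomain.

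The cell type label was checked with ATAC-seq peaks from 1000 bp upstream to 100 bp downstream of gene starts. Only the 5′ end of each annotated gene body was taken as a start, so internal starts were not covered. Of 9 basal mammary epithelial genes, 8 had a promoter peak in both lists, all but TP63, with fold enrichments between 7.01 and 23 in native cells. Of 8 lymphoid genes, 1 had a promoter peak in native cells and 3 in cells expressing Satb1. Of 6 neuronal genes, 4 and 3 had one. Over all protein-coding genes the share was 69.2% in native cells and 73.8% in cells expressing Satb1.

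The sequences that carry the binding are shown first. In each, 300 bp of the plus strand of GRCh37 centered on the summit of an FL peak are given 5′ to 3′, and capitals mark exact matches to the Satb1 consensus YTAWTAR, where Y stands for C or T, R for A or G and W for either of A and T. This consensus is its own reverse complement, so both strands are read at once, and overlapping matches run together in capitals. The set holds the strongest FL peak of each window, the FL peak with the most matches, the only FL peak inside a SLITRK gene and the strongest FL peak that was in neither truncation list. The last pair was chosen after its values were seen.
SLITRK1, chr13:84129656-84129955: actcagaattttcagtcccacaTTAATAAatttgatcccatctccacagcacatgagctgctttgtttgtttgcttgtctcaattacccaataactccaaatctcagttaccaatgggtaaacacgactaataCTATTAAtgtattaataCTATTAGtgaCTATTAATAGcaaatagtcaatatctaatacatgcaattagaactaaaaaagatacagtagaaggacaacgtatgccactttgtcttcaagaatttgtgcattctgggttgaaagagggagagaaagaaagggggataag
SLITRK3, chr3:164711702-164712001: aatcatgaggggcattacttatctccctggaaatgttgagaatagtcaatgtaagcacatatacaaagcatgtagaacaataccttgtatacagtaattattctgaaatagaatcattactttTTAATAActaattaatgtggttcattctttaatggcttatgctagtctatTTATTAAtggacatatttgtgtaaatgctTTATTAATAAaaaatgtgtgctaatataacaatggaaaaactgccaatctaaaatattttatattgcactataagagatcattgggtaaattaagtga
SLITRK5, chr13:88299287-88299586: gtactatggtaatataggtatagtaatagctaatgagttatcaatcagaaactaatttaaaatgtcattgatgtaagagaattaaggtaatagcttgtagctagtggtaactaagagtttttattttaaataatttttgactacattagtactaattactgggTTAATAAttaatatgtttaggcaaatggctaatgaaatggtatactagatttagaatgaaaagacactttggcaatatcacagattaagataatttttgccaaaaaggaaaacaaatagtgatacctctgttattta
SLITRK6, chr13:86725143-86725442: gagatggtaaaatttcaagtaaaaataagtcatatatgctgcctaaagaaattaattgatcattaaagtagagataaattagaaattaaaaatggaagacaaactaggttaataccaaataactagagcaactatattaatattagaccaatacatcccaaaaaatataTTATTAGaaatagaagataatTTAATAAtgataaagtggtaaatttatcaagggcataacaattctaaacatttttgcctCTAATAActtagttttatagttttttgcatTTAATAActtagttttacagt
SLITRK6, most matches, chr13:86707426-86707725: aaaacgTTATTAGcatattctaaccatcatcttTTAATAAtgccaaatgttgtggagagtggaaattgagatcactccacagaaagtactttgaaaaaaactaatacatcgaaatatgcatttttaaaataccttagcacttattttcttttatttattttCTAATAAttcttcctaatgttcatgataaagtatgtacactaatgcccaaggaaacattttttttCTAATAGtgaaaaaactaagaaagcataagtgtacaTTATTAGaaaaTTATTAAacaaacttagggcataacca
SLITRK6, first intron, chr13:86380055-86380354: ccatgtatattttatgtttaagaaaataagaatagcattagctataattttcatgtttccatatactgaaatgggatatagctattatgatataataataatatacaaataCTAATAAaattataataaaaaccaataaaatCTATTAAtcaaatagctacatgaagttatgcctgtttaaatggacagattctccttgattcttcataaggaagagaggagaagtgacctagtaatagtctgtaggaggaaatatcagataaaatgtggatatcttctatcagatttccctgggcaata
SLITRK6, in neither truncation list, chr13:86304011-86304310: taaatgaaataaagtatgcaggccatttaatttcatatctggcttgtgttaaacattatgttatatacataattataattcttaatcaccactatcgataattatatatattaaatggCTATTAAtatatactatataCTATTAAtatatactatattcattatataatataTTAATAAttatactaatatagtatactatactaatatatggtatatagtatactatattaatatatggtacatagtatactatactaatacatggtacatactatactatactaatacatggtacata

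All 7 stretches lie outside annotated exons. The SLITRK1 peak carries 5 matches in this stretch, 4 of them packed around the summit with starts 17, 10 and 3 bases apart, and the SLITRK5 peak carries a single match. The stretch with the most matches in the windows holds 6, spread along its length with starts 11 to 128 bases apart. The last stretch is 81.0% A/T, the highest of the 7, against 65.3% in the SLITRK1 stretch.

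SLITRK1, SLITRK6 and SLITRK5 lie in this order on chromosome 13 with no other protein-coding gene between them. SLITRK1 is 3.54 Mb from SPRY2 on its other side and 1.91 Mb from SLITRK6, which is 1.94 Mb from SLITRK5. The next gene beyond SLITRK5, GPC5, is 3.70 Mb away. SLITRK3 on chromosome 3 is not in a desert of this kind, since SI, which encodes sucrase-isomaltase, lies 0.108 Mb away inside the window (chr3:164696686-164796284), and BCHE lies 0.576 Mb away on the other side. A stretch of 120 kb at the upstream edge of the SLITRK6 window (chr13:86760325-86880818) has no assembled sequence and can hold no peak, so densities are per Mb of assembled sequence.

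FL peaks were denser around all 4 genes than over the genome. The density was 13.9 FL peaks per Mb at SLITRK1, 16.8 at SLITRK3, 22.4 at SLITRK5 and 26.9 at SLITRK6, against 8.0 over the genome. Outside the windows it was 12.1 per Mb on chromosome 13 and 8.45 on chromosome 3. SLITRK1 thus lay little above the rest of its own chromosome. The windows held 0.341% of the FL list (0.270 to 0.425), above their 0.138% share of the assembled genome. When the same window was drawn around each protein-coding gene, the median density was 3.98 FL peaks per Mb, with quartiles of 1.98 and 6.97. SLITRK1 lay above 95.9% of these windows, SLITRK3 above 98.0%, SLITRK5 above 99.3% and SLITRK6 above 99.7%. These windows overlap their neighbours, and the 4 genes were chosen with earlier results of these data known. The percentages therefore describe a rank and are not a test. Among the 399 windows with at most 2 protein-coding genes the median was 9.71 FL peaks per Mb and the upper quartile 14. SLITRK1 lay just under that quartile, and the other three lay above it.

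**Figure D1:**
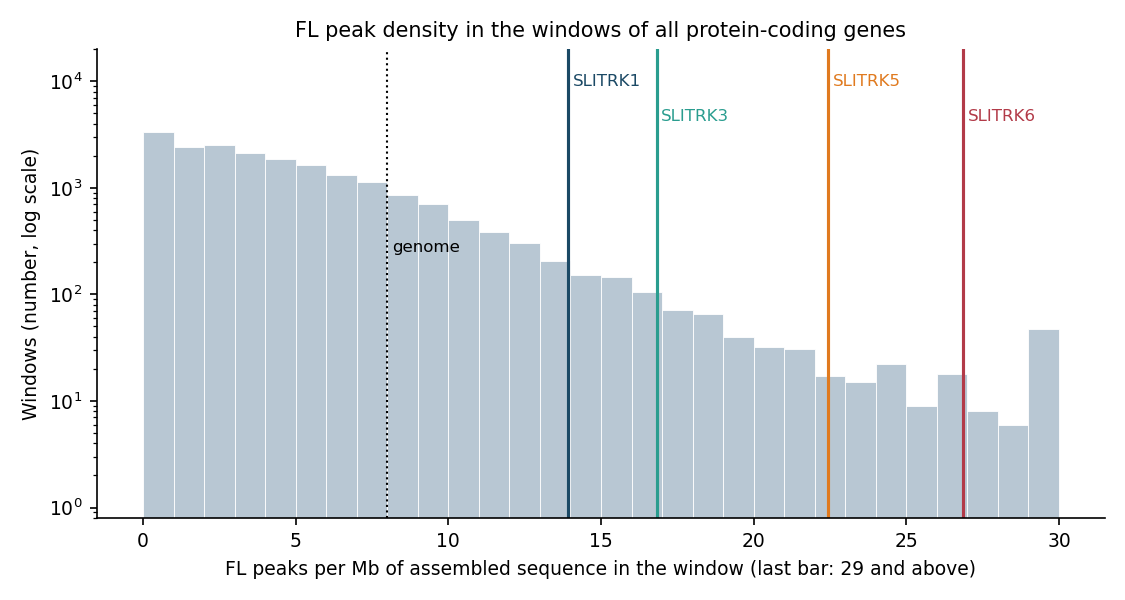
Number of FL peaks per Mb of assembled sequence (x axis) in the windows of 20136 protein-coding genes (bars, counts on a log axis), with the genome-wide density as a dotted line and the SLITRK genes as solid lines. All 4 genes lie in the upper tail, from 13.9 per Mb at SLITRK1 to 26.9 at SLITRK6.

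The other ChIP-seq lists were dense in the same windows. ∆HD gave 26.9 peaks per Mb at SLITRK1 and 39.2 at SLITRK6, against 17.7 over the genome, and N-C1 gave between 39.6 and 50.4, against 22.0. With camptothecin the density ran from 18.9 at SLITRK1 to 36.9 at SLITRK6, against 8.56, and with ICRF-193 from 27.9 to 45.9, against 13.1. As shares of their lists, the windows held 0.255% of ∆HD peaks (0.213 to 0.303), 0.270% of N-C1 peaks (0.231 to 0.314), 0.425% of camptothecin peaks (0.347 to 0.515) and 0.394% of ICRF-193 peaks (0.333 to 0.462). SLITRK1 had the fewest peaks per Mb in every ChIP-seq list except N-C1, in which SLITRK3 had the fewest. ATAC-seq peaks went the other way, with 25.7 peaks per Mb in native cells over the 4 windows against 61.6 over the genome. They covered 1.45% of the assembled windows and 5.76% of the genome.

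The sequence of the windows differed from the genome in the same sense as the FL peaks. A/T content was 65.3% at SLITRK1, 65.5% at SLITRK3, 65.5% at SLITRK5 and 65.4% at SLITRK6, against 59.1% over the genome. The consensus had 4928 matches in the windows, or 1253 per Mb, against 818 per Mb over the genome. The number of matches varied little between the genes, from 1207 per Mb at SLITRK1 to 1301 at SLITRK6, while the density of FL peaks ran from 13.9 to 26.9 per Mb. Per 100 matches there were 1.15 FL peaks at SLITRK1, 1.32 at SLITRK3, 1.81 at SLITRK5 and 2.07 at SLITRK6, against 0.978 over the genome. Match density therefore ordered the 4 genes differently from peak density, with SLITRK3 ahead of SLITRK5 in matches and behind it in peaks. Outside the windows, chromosome 13 had 965 matches per Mb and 1.25 FL peaks per 100 matches, more per match than SLITRK1. Chromosome 3 had 882 matches per Mb and 0.959 FL peaks per 100 matches.

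**Figure D2:**
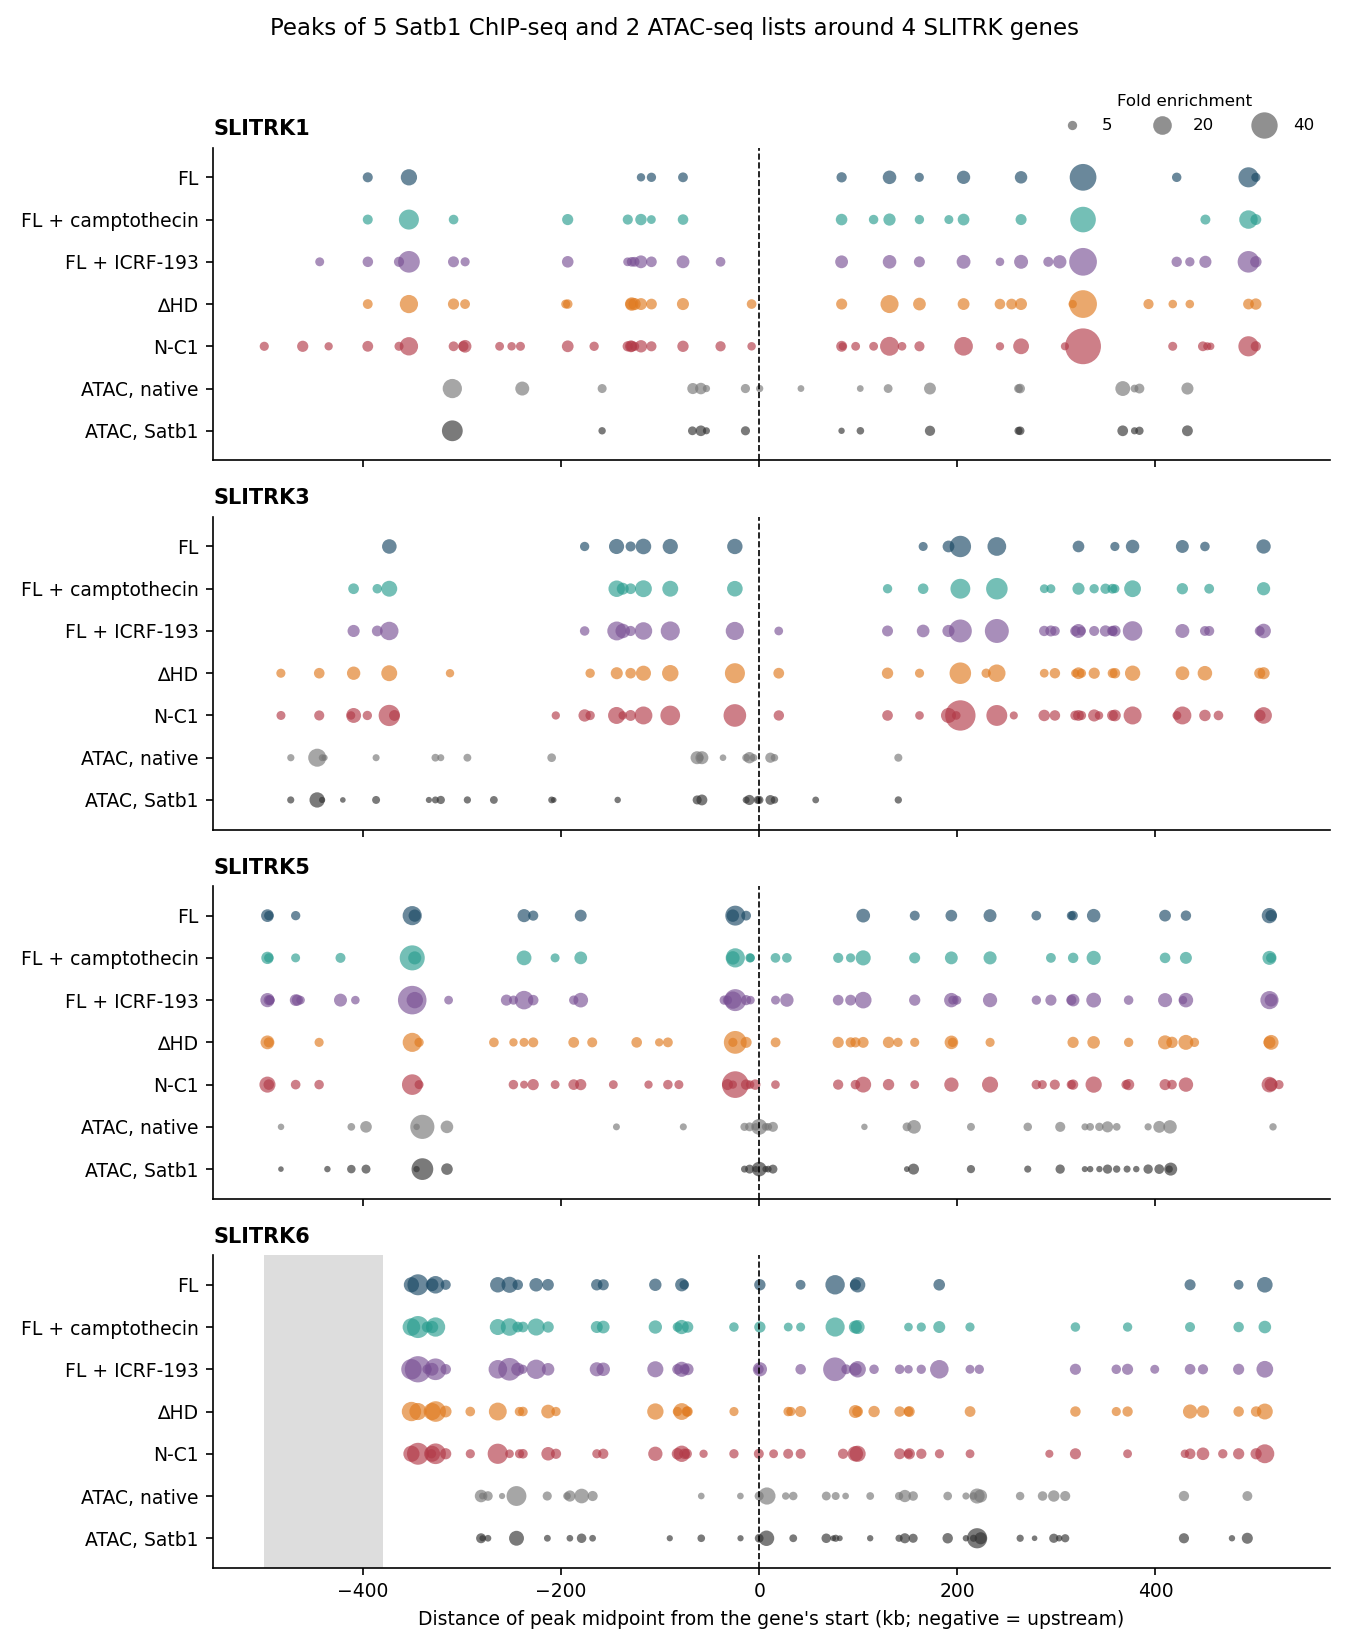
Midpoint of each peak (x axis, kb from the gene's start, negative upstream) in the 5 ChIP-seq and 2 ATAC-seq lists (rows) for the 4 genes, with the area of each point proportional to its fold enrichment and the unassembled stretch at SLITRK6 in grey. FL peaks are spread on both sides of each gene, and only SLITRK6 has an FL peak within 10 kb of its start.

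SLITRK1 spans chr13:84451340-84456609 on the minus strand, and its protein promotes the growth of neurites and the formation of synapses. Its window had 14 FL peaks, 9 on the downstream side and 5 upstream, with a median fold enrichment of 5.96. The strongest, chr13:84129331-84130116, lay 327 kb downstream of the start with a fold enrichment of 41.2, rank 211 in the FL list. Its fold enrichment was 44.3 in the ∆HD list, 73.9 in the N-C1 list, 37.7 with camptothecin and 44.2 with ICRF-193. It ranked 71, 38, 264 and 304 in these lists. It was thus among the strongest sites of every ChIP-seq list. It held 5 matches in 400 bp, the most at SLITRK1, a number shared with chr13:83962512-83962962 and with the peak nearest to the start. The FL peak nearest to the start was 77.0 kb upstream (chr13:84533434-84533701) and weak, with a fold enrichment of 5.54 and 5 matches. ∆HD and N-C1 had a peak without an FL counterpart 7.65 kb upstream (chr13:84464146-84464476 in the ∆HD list), with fold enrichments of 5.37 and 4.13.

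SLITRK3 spans chr3:164904508-164914897 on the minus strand, and its protein is known for organizing inhibitory synapses through PTPRD. Its window had 17 FL peaks, 10 downstream and 7 upstream, with a median fold enrichment of 10.5, the highest of the 4 genes. The strongest, chr3:164711570-164712159, lay 203 kb downstream in an intron of SI with a fold enrichment of 26.4, rank 852. Its values were 26.7 in the ∆HD list, 53.1 in the N-C1 list, 22.7 with camptothecin and 30.4 with ICRF-193. It was 1 of 3 FL peaks in introns of SI. All 7 upstream peaks were in introns of LINC01322, a long non-coding RNA gene that starts near SLITRK3 on the opposite strand. The peak nearest to the start was among them, 24.6 kb upstream (chr3:164939298-164939696), with a fold enrichment of 13.6 and 3 matches. It was in all 5 lists, with 23.1 for ∆HD, 29.5 for N-C1, 14.1 with camptothecin and 19.0 with ICRF-193. The FL peak with the most matches, 5, was a weak peak 130 kb upstream (chr3:165044622-165044846) with a fold enrichment of 5.82.

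SLITRK5 spans chr13:88323626-88348527 on the plus strand, and its protein is known from corticostriatal circuits, where its loss in mice gives compulsive grooming. Its window had 23 FL peaks, 11 upstream and 12 downstream, with a median fold enrichment of 8.01. The strongest, chr13:88299180-88299722, lay 24.2 kb upstream in an intron of MIR4500HG, a long non-coding RNA gene that overlaps the start of SLITRK5 on the opposite strand. Its fold enrichment was 22.9, rank 1203, with 29.9 for ∆HD, 40.9 for N-C1, 21.3 with camptothecin and 27.8 with ICRF-193. It held only 1 match in 400 bp, fewer than the strongest peaks of the other windows. A further peak, chr13:87972927-87973739, lay 350 kb upstream with 5 matches and a fold enrichment of 21.2. That site had 36.1 with camptothecin and 46.9 with ICRF-193, against 21.1 for ∆HD and 24.4 for N-C1. Its rank was 1452 in the FL list, 299 with camptothecin and 247 with ICRF-193. It thus stood nearer to the top of both drug lists than of the FL list. The FL peak nearest to the start, chr13:88310288-88310506, was 13.3 kb upstream with a fold enrichment of 5.54. The body of SLITRK5 had no FL peak, but the other 4 ChIP-seq lists each had a peak at the same place in it, 16.5 to 16.6 kb from the start (chr13:88339919-88340377 in the ∆HD list), with fold enrichments between 4.31 and 5.56.

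SLITRK6 spans chr13:86366925-86380818 on the minus strand. Its window had 24 FL peaks although 120 kb of it is unassembled, 15 upstream, 8 downstream and 1 in the gene. The strongest, chr13:86725016-86725649, lay 344 kb upstream with a fold enrichment of 25.4, rank 946. Its values were 16.9 for ∆HD, 27.7 for N-C1, 28 with camptothecin and 39.7 with ICRF-193. The peak with the most matches in all 4 windows, chr13:86707286-86707863, lay 327 kb upstream with 7 matches in 400 bp and a fold enrichment of 17.7. Both peaks are in introns of the long non-coding RNA gene ENSG00000232252. SLITRK6 was the only gene with an FL peak within 10 kb of its start. That peak, chr13:86380051-86380314, lay 0.613 kb into the gene, in its first intron, with a fold enrichment of 7.46 and 2 matches. The same place was in both drug lists, with 7.36 for camptothecin and 11.6 for ICRF-193, and in neither truncation list. N-C1 and ICRF-193 had a separate peak just upstream of the start, with summits 0.401 and 0.405 kb away and fold enrichments of 5.70 and 5.58.

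FL peaks were spread along the windows. The distance of the 78 summits to the gene's start had a median of 239 kb, beside a median of 245.9 kb over all assembled bases of the windows. Within 100 kb there were 14 summits, against 15.9 for an even spread, and within 50 kb 6, against 7.93. Within 10 kb there was 1, that of SLITRK6, against 1.59. In all, 38 were upstream, 39 downstream and 1 in a gene body. By annotation at the summit, 43 were intergenic, 31 were in introns of long non-coding RNA genes only and 4 in introns of protein-coding genes, and none was in an exon of either kind. The gene bodies themselves held few matches, 2 in SLITRK1, 9 in SLITRK3, 21 in SLITRK5 and 24 in SLITRK6. They ranged from 52.6% A/T in SLITRK1 to 67.4% in SLITRK6. In the 300 bp from 250 bp upstream to 50 bp downstream of the start, SLITRK6 held 1 match and the other 3 genes none. At 6.60% of all protein-coding genes this stretch holds a match.

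The strength of the FL peaks lay within the range of the whole list. Fold enrichment had a median of 8.08 over the 78 peaks and ran from 4.04 to 41.2. Over the list the median was 7.32 and the range 1.65 to 59.0. A fold enrichment of at least 10 was found for 29 of the 78 peaks, 37.2% (26.5 to 48.9), beside 28.3% of the FL list. By gene these were 5 at SLITRK1, 9 at SLITRK3, 5 at SLITRK5 and 10 at SLITRK6. Each window had 2 peaks at 20 or more.

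Consensus matches were found in 400 bp at the midpoint of 77 of the 78 peaks, 98.7% (93.1 to 100), beside 96.6% of the FL list. The exception was a weak peak downstream of SLITRK5. The mean was 2.88 matches per peak (SD 1.24 across peaks), and 3.14 at SLITRK1, 2.71 at SLITRK3, 2.65 at SLITRK5 and 3.08 at SLITRK6. Over the list it was 2.75 (SD 1.57). The SDs across the peaks of a gene were 1.05 to 1.30. At least 4 matches were found in 21 peaks, 26.9% (17.5 to 38.2), beside 24.5% of the list. Strength and match number were loosely related within the windows. The median fold enrichment was 5.96 over the 8 peaks with 1 match, 7.46 over the 21 with 2, 9.93 over the 27 with 3 and 8.01 over the 20 with 4 or 5. Each of these classes spanned at least a range from 5.0 to 20.2.

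Neighbouring matches within 400 bp lay a median of 39 bp apart in the 78 peaks and 34 bp over the list. Starts 8 to 12 bp apart made up 14 of 148 neighbouring pairs, 9.46% (5.27 to 15.4), beside 10.8% over the list. The windows thus held no more of this spacing than the whole list.

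A match was more often inside an FL peak in the windows than over the genome. Of the 4928 matches, 219 were inside an FL peak, 4.44% (3.89 to 5.06), beside 2.71% over the genome. By gene the share was 3.46% at SLITRK1 (2.51 to 4.65), 3.5% at SLITRK3 (2.57 to 4.66), 4.57% at SLITRK5 (3.49 to 5.87) and 6.37% at SLITRK6 (5.03 to 7.93). Most matches were solitary, and solitary matches were rarely bound. With no other match within 200 bp, 10 of 2718 were inside an FL peak, 0.368% (0.177 to 0.676), against 0.287% over the genome. With 3 matches in that range, the match itself included, the share was 18.5% in the windows (15.2 to 22.1) and 11.1% over the genome. With 4 it was 39.2% (29.4 to 49.6) against 32%. With 5 or more it was 66.0% (50.7 to 79.1) against 69.5%. The share rose with local match number in the windows as it did over the genome. These intervals count single matches, but neighbouring matches tend to lie in or out of the same peak together. The intervals are therefore too narrow. That the interval for 3 matches lay clear of the genome-wide value does not show a difference.

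**Figure D3:**
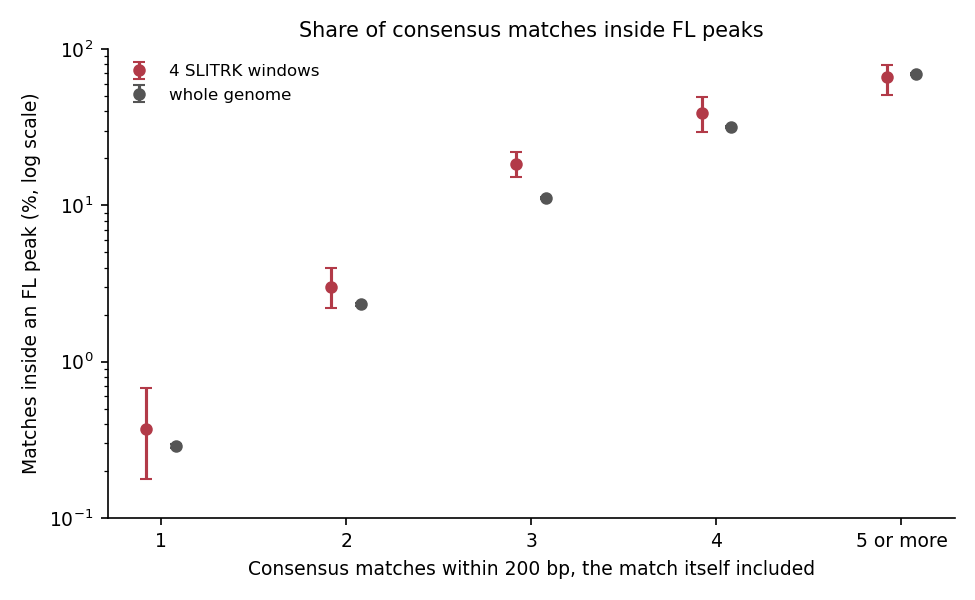
Share of consensus matches that lie inside an FL peak (y axis, log scale) by the number of matches within 200 bp (x axis) in the SLITRK windows and over the genome. Points are shares and bars are 95% Clopper-Pearson intervals over matches, too narrow because matches in the same peak are not independent. In the windows the share rises from 0.368% for solitary matches to 66.0% for matches in groups of 5 or more.

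FL peaks sat in local rises of A/T content. The central 200 bp of the 78 peaks held 74.7% A/T on average (SD 3.84), beside 72.4% (SD 5.49) over the list. Between 500 and 1000 bp from the summit the content was 66.2% in the windows and 62.9% for the list. The windows were therefore richer in A/T than the list both at the peaks and around them.

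FL peaks of the SLITRK5 and SLITRK6 windows often lay close together. These windows were also the densest, with 22.4 and 26.9 FL peaks per Mb against 8.0 over the genome, and denser peaks lie closer together. Whether they lay closer than their density gives was not tested. Of the 78 peaks, 27 were within 10 kb of another FL peak, 34.6% (24.2 to 46.2), beside 23.3% of the FL list. By gene there were 12 of 23 at SLITRK5 (30.6 to 73.2%) and 13 of 24 at SLITRK6 (32.8 to 74.4%), but only 2 of 14 at SLITRK1 and 0 of 17 at SLITRK3. A count of 0 in 17 allows a share of up to 17.6% when 3 counts are taken as its limit, and the exact upper bound is 19.5%. SLITRK3 thus had a higher density than SLITRK1 and no cluster, its closest neighbours lying 11.6 kb apart. There were 13 clusters in all, 6 each at SLITRK5 and SLITRK6 and 1 at SLITRK1. Most were pairs, among them chr13:88296771-88299722 at SLITRK5, which joins the strongest peak with a weaker one 24.2 to 26.7 kb upstream. The largest that lay wholly in a window held 3 peaks with 11 matches over 14 kb at SLITRK6 (chr13:86697217-86711202), 316 to 330 kb upstream. The median gap between neighbouring FL peaks was 48 kb at SLITRK1, 34.1 kb at SLITRK3, 35.9 kb at SLITRK5 and 19.9 kb at SLITRK6, against 63.0 kb over the list.

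The truncations address whether the homeodomain and the second CUT domain are needed for Satb1 to find its sites. At the SLITRK genes, 60 of the 78 FL peaks overlapped a ∆HD peak, 76.9% (66.0 to 85.7), beside 88.6% of the FL list. A peak of N-C1 overlapped 71 of them, 91.0% (82.4 to 96.3), beside 95.2%. The interval for ∆HD lay below the share over the list, and the interval for N-C1 included it. Neighbouring peaks are not independent, so an interval clear of the list's share does not show a difference. By gene, ∆HD covered 13 of 14 at SLITRK1, 14 of 17 at SLITRK3, 18 of 23 at SLITRK5 and 15 of 24 at SLITRK6. SLITRK6 had the lowest share, 62.5% (40.6 to 81.2), and 9 of the 18 FL peaks that ∆HD lacked. All 60 FL peaks in the ∆HD list were also in the N-C1 list, as were 99.2% over the FL list.

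Of these 18, 7 were in neither truncation list, and they were 8.97% of the FL peaks (3.68 to 17.6), beside 4.1% of the FL list. SLITRK6 held 4 of them and the other genes 1 each. The strongest, 76.7 kb downstream of the SLITRK6 start (chr13:86303832-86304627), had a fold enrichment of 21.7, the next strongest peak of that window, with 21.1 in the camptothecin list and 32.3 in the ICRF-193 list. It ranked 1354 in the FL list. Another, 225 kb upstream, had 10.5 in the FL list, 16.8 with camptothecin and 21.6 with ICRF-193. The others were weaker, and the SLITRK3 peak, at 4.72, was the weakest FL peak of its window. All 7 were in the ICRF-193 list and 6 in the camptothecin list.

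The sites that the truncation lists lacked were rich in A/T. The median of the central 200 bp was 79.5% A/T in the 7 peaks found in neither list, from 74.5% to 84%. It was 76.0% in the 11 peaks found in N-C1 only and 74.0% in the 60 found in both. Their match numbers were alike, with means of 3.0, 2.36 and 2.97. The same order was seen over the FL list, with medians of 80.5%, 76.5% and 72.0%. Of the list's FL peaks with at least 80% A/T, 33.2% were in neither truncation list (30.9 to 35.5). In the windows this was 3 of 9. Between 75 and 80% A/T it was 4.84% of the list's peaks and 2 of 28 in the windows. Between 70 and 75% it was 0.919% of the list's peaks and 2 of 34 in the windows, 5.88% (0.720 to 19.7), and below 70% it was 0.440% and 0 of 7. Outside the ∆HD list were 1 of 7 window peaks below 70% A/T, 14.3%, beside 3.3% of the list's peaks. Between 70 and 75% they were 6 of 34, 17.6%, beside 6.05%. Between 75 and 80% they were 5 of 28, 17.9%, beside 15.4%, and from 80% 6 of 9, 66.7%, beside 59.0%. Each bin holds few window peaks, and whether the windows differ from the list at like A/T content was not tested.

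**Figure D4:**
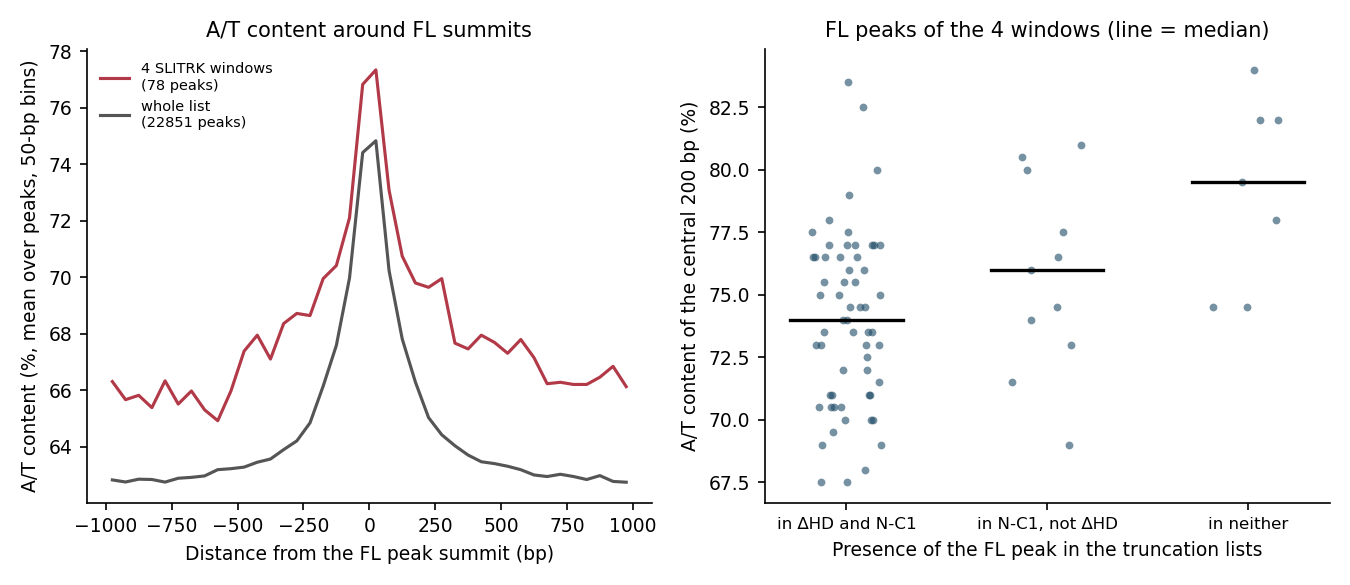
Left, mean A/T content in 50-bp bins by distance from the FL summit for the SLITRK windows and the whole FL list. Right, A/T content of the central 200 bp of each of the 78 FL peaks by its presence in the truncation lists (points are peaks, lines are medians). The medians are 74.0% for peaks in both lists, 76.0% for peaks in N-C1 only and 79.5% for peaks in neither.

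Both truncations also had peaks where FL had none. Of the ∆HD peaks in the windows, 69 of 129 overlapped no FL peak, 53.5% (44.5 to 62.3), beside 60.1% of the ∆HD list. Of the N-C1 peaks, 99 of 170 did not, 58.2% (50.4 to 65.7), beside 65.4%. Of the 69 ∆HD peaks, 50 overlapped an N-C1 peak, 35 an ICRF-193 peak and 19 a camptothecin peak, and 13 were in no other ChIP-seq list, 18.8% (10.4 to 30.1), beside 25.8% over the list. Of the 99 N-C1 peaks, 39 were in no other ChIP-seq list, 39.4% (29.7 to 49.7), beside 38.8%. These peaks were weaker and held fewer matches than those shared with FL. The median fold enrichment was 5.56 against 9.53 for ∆HD and 5.0 against 11.8 for N-C1, and the mean number of matches 1.84 against 2.87 and 1.88 against 2.85. All but 3 and 5 of them still held a match. The strongest without an FL peak was in introns of LINC01322, 409 kb upstream of SLITRK3 (chr3:165324116-165324558 in the N-C1 list), with 12.8 for N-C1 and 10.3 for ∆HD. The strongest ∆HD peak of this kind at SLITRK1, chr13:84585083-84585621, had 10.5 and lay 129 kb upstream. At SLITRK5 and SLITRK6 they were weaker, 7.45 and 8.77 for ∆HD and 7.43 and 9.17 for N-C1.

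**Figure D5:**
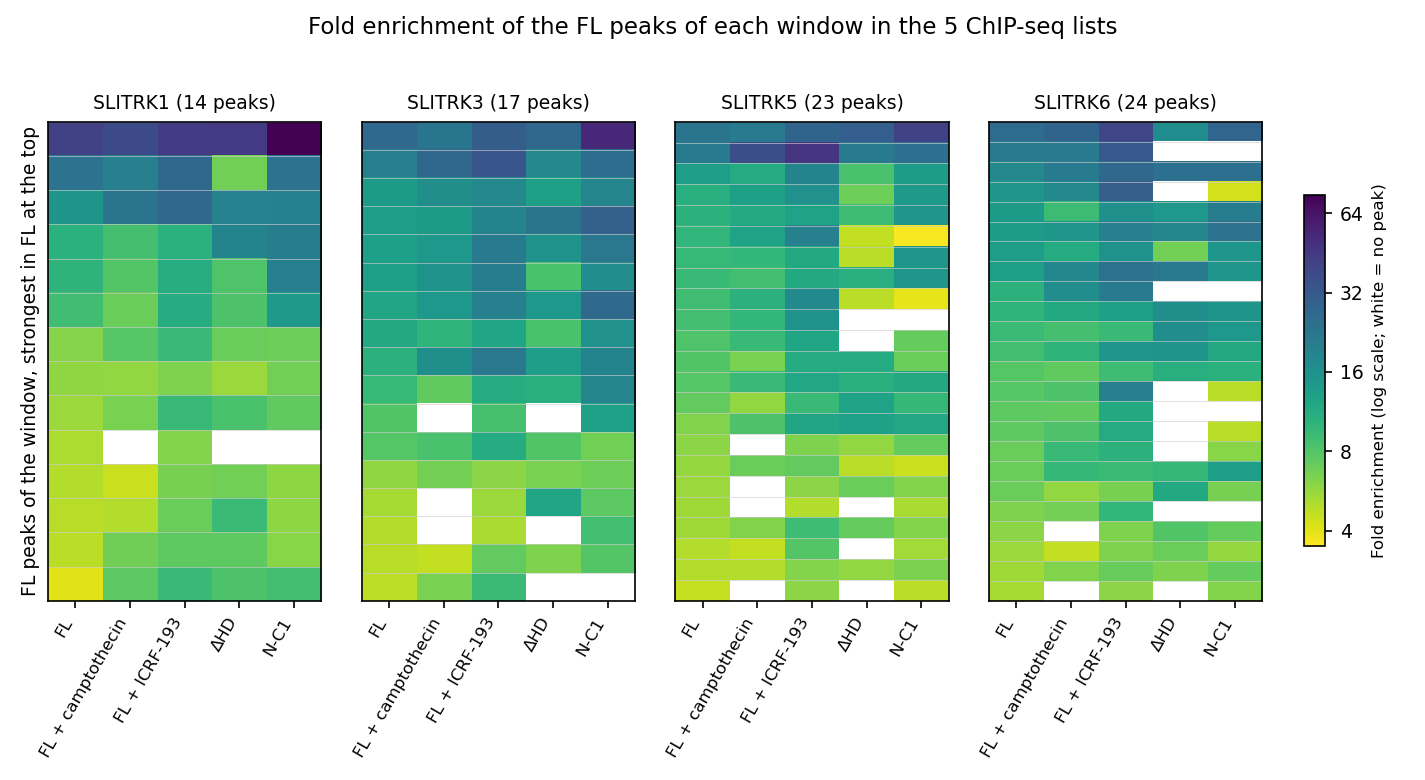
Fold enrichment (color, log scale) of each FL peak of the windows (rows, strongest in FL at the top) in the 5 ChIP-seq lists (columns), with white where a list has no overlapping peak. The ICRF-193 column is filled for all 78 peaks, and the ∆HD and N-C1 columns are white together at 4 peaks of SLITRK6 and at 1 of each other gene.

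The drug treatments address whether a change in DNA torsion moves Satb1. Every one of the 78 FL peaks overlapped an ICRF-193 peak, 100% (95.4 to 100), beside 92.9% of the FL list. With camptothecin 68 of the 78 did, 87.2% (77.7 to 93.7), beside 81.7%. The 10 that the camptothecin list lacked comprised 1 at SLITRK1, 3 at SLITRK3, 4 at SLITRK5 and 2 at SLITRK6, with fold enrichments of at most 8.01 in the FL list. All 5 ChIP-seq lists shared 56 of the 78 FL peaks, 71.8% (60.5 to 81.4), beside 70.8%. By gene they were 13 of 14 at SLITRK1, 13 of 17 at SLITRK3, 16 of 23 at SLITRK5 and 14 of 24 at SLITRK6.

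The drug lists also had peaks where FL had none. With camptothecin, 36 of 104 peaks overlapped no FL peak, 34.6% (25.6 to 44.6), beside 23.9% of that list, and the interval lay above the list's share. That alone does not show a difference, since neighbouring peaks are not independent. With ICRF-193, 69 of 147 peaks overlapped no FL peak, 46.9% (38.7 to 55.3), beside 43.3%. Many of the peaks without an FL counterpart overlapped a truncation peak of untreated cells, as did many over the whole lists. Of the 36 camptothecin peaks, 25 overlapped a ∆HD or N-C1 peak, 69.4% (51.9 to 83.7), beside 80.7% over the list. Of the 69 ICRF-193 peaks, 43 did, 62.3% (49.8 to 73.7), beside 73.8%. Of the 36 camptothecin peaks, 30 overlapped an ICRF-193 peak, 83.3% (67.2 to 93.6), beside 79.5%, and 1 was in no other ChIP-seq list, beside 4.48%. Of the 69 ICRF-193 peaks, 30 overlapped a camptothecin peak, 43.5% (31.6 to 56.0), beside 28.4%. In no other ChIP-seq list were 16 of them, 23.2% (13.9 to 34.9), beside 21%. By gene there were 10 of these at SLITRK5, 3 each at SLITRK1 and SLITRK6 and 0 at SLITRK3. Both sets were weak, with median fold enrichments of 5.28 and 5.38, against 9.35 and 11.4 where FL also had a peak. The strongest was 138 kb upstream of SLITRK3 in LINC01322 (chr3:165052449-165052889 in the ICRF-193 list), with 12.2 for ICRF-193 and 8.27 for camptothecin. The strongest ICRF-193 peak without an FL peak at SLITRK1, chr13:84152990-84153464, had 10.3 and was in none of the other lists. At SLITRK5 it was 28 kb downstream of the start (chr13:88351384-88351743), just past the end of the gene, with 10.3. At SLITRK6 a peak 72.3 kb upstream was strongest in both drug lists, with 7.54 for camptothecin and 8.11 for ICRF-193.

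When the 5 lists were merged, the windows held 223 sites, 52 at SLITRK1, 47 at SLITRK3, 67 at SLITRK5 and 57 at SLITRK6. Of these, 56 were in all 5 lists, 25.1% of the window sites, beside 21.0% of the genome's 76660. Another 69, 30.9%, were in 1 list only, beside 35.9%, and 39 of them were in N-C1 alone. No site was in the FL list alone, and over the whole FL list 0.114% of peaks were in no other ChIP-seq list. SLITRK3 and SLITRK6 had 11 sites each in a single list, whereas SLITRK1 and SLITRK5 had 23 and 24.

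ATAC-seq addresses whether Satb1 binds accessible chromatin. At the SLITRK genes, 0 of the 78 FL peaks lay on accessible sites of native cells, which allows a share of up to 3.85% by the limit of 3 counts and up to 4.62% by the exact bound, beside 3.42% of the FL list. In cells expressing Satb1, 1 did, 1.28% (0.0325 to 6.94), beside 4.64%. That peak lay 83.2 kb downstream of the SLITRK1 start with a fold enrichment of 6.09, and the ATAC-seq peak over it had only 2.35. The windows hold too few peaks to tell these shares from those of the list. The nearest native ATAC-seq peak was a median of 14.7 kb away from an FL peak of the windows, against 8.23 kb over the list, and 7 of the 78 had one within 1 kb.

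Accessibility at the gene starts differed between the 4 genes. SLITRK5 had a broad ATAC-seq peak over its start in both lists, chr13:88321557-88325581 in native cells, with fold enrichments of 14.6 in native cells and 12.4 in cells expressing Satb1. It had 3 further peaks within its body in each list. SLITRK6 had a peak over its start in both lists, chr13:86380663-86381126 in native cells, with 4.74 and 4.43. A stronger peak lay inside the gene, chr13:86372237-86373875 in native cells, with 17.0 and 13.8. The first-intron FL peak of SLITRK6 lay beside the ATAC-seq peak over the start without overlapping it. SLITRK3 had a peak just inside its start in cells expressing Satb1 only (chr3:164914547-164914884), with 3.79. SLITRK1 had a peak inside the gene, 0.453 kb from its start, in native cells only (chr13:84456023-84456288), with 3.05. These last peaks were weak, and with 1 library per condition a peak in a single list is not shown to be a change in accessibility. SLITRK1 and SLITRK3 had no ATAC-seq peak in both lists at their starts.

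Most ATAC-seq peaks of the windows were shared. In native cells, 84 of 101 overlapped a peak of cells expressing Satb1, 83.2% (74.4 to 89.9), beside 88.8% of the native list. Of the peaks in cells expressing Satb1, 85 of 103 overlapped a native peak, 82.5% (73.8 to 89.3), beside 70.2%. The median of the unshared peaks was below that of the shared ones at every gene in both lists. For native cells the median fold enrichment of unshared peaks was between 2.68 at SLITRK3 and 3.77 at SLITRK1, against 3.57 to 5.50 for shared ones. The strongest unshared native peak lay 239 kb upstream of SLITRK1 (chr13:84695571-84696050) with 11.3. SLITRK3 had 8 peaks in cells expressing Satb1 only and 4 in native cells only, whereas SLITRK1 had 1 and 4. The strongest ATAC-seq peak of the windows lay 340 kb upstream of SLITRK5 (chr13:87983229-87983875 in native cells), with 33.6 in native cells and 27.2 in cells expressing Satb1.

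The FL density was not shared by the whole family. The windows of SLITRK2 and SLITRK4, neighbours on the X chromosome, held 8 FL peaks each, or 7.90 and 7.89 per Mb, close to the genome value and below the other 4 genes. Their matches were also sparser, with 902 and 973 per Mb. Among the receptors, PTPRD had 40 FL peaks in a window of 3.30 Mb, 12.1 per Mb, while PTPRS had 3 and PTPRF had 3. In other families of synaptic or axonal leucine-rich repeat proteins, FL density ran from 4.97 per Mb at LRRTM2 to 15.7 at LRRTM4, from 0.923 at FLRT1 to 7.12 at FLRT2 and from 2.53 at SLIT1 to 13.2 at SLIT2. None of these genes reached the density of SLITRK3, SLITRK5 or SLITRK6, and only LRRTM4 exceeded SLITRK1.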

How the data were processed

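The authors trimmed reads with cutadapt, aligned them to hg19 with bowtie2 and used MACS2 for the peaks, with input DNA as the ChIP-seq control and in broad mode for ATAC-seq. Whether duplicate libraries were pooled, and the depth of each list, are not given in the sources used here. The deposited fold enrichment is the authors' ratio for each peak over local background, and the deposited −log10 p and −log10 q-values are those of MACS2. The other samples of the series (inputs, the N construct, TMP-seq) were not analysed here, and the mouse lists were only counted.

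The members, gene lists and measures were chosen with earlier results of these data known. Windows were gene bodies of GENCODE v44 lifted to GRCh37, which shares its coordinates with hg19, plus 500 kb on each side. Overlaps needed 1 bp. YTAWTAR was matched exactly in 400 bp at peak midpoints, A/T content was taken over 200 bp, and clusters joined FL peaks within 10 kb. A gene's start was the 5′ end of its annotated gene body. Named peaks were, per gene, the FL peak with the largest fold enrichment, the most matches or the shortest distance to the start, and the strongest peak of each other ChIP-seq list without an FL peak. Ties in matches went to the larger fold enrichment. Others were chosen after their values were seen. No test between conditions was run. A further gene list is not reported here.

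On simulated data, 0 of 3000 intervals, 0 of 924 planted motifs and 0 of 884 cluster members were wrong. Alternatives covered thresholds, flanks, overlap, motif window, consensus and cluster distance. Overlaps and clusters were computed with custom code, and its overlaps were checked against bedtools 2.31.1 on the simulated intervals. Sequence was handled with samtools 1.23.1 and pysam 0.24.0. Statistics used scipy 1.17.1, pandas 2.3.3 and numpy 2.4.6 in Python 3.11.15, and plots matplotlib 3.10.9.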

Additional observations from a re-analysis of the deposited data

Results flagged for a closer look

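Peaks were present around the same genes in data that the comparisons did not use, the lists of VL3, a mouse thymocyte line. The windows of mouse Slitrk1, Slitrk3, Slitrk5 and Slitrk6, drawn in the same way on mm10, held 4 of 3972 peaks of Satb1, 40 of 18090 ∆HD peaks and 47 of 21757 N-C1 peaks. These were 0.101% (0.0274 to 0.258), 0.221% (0.158 to 0.301) and 0.216% (0.159 to 0.287) of their lists, beside the windows' 0.152% of the assembled mouse chromosomes. The Satb1 peaks were too few to tell their share from the share of sequence, which their interval included. The intervals for ∆HD and N-C1 lay just above the share of sequence, but neighbouring peaks are not independent. The 4 Satb1 peaks were 2 at Slitrk1 and 2 at Slitrk6, with a largest fold enrichment of 12.7. The strongest peaks of the other lists were at Slitrk1, with 42.5 for ∆HD and 43.2 for N-C1. Slitrk3 had the weakest maxima of those lists, 8.11 and 8.85. Satb1 was precipitated with a Satb1 antibody and the truncations with a GFP antibody, so the lists cannot be compared in number.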

How the results depend on the processing

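Of 87 values recomputed under another setting, 69 stayed within the interval, or within 1.5 times for a count, of the values reported and 18 did not. With flanks of 250 kb the windows held 41 FL peaks and with flanks of 1 Mb 159, in place of 78. ATAC-seq peaks numbered 61 and 179 in native cells and 57 and 183 in cells expressing Satb1. These counts grow with the length of sequence searched, so their change does not show that density depends on the flank. FL peaks overlapping an N-C1 peak fell to 82.4% with a fold enrichment of at least 5 in all ChIP-seq lists, and those overlapping an ICRF-193 peak to 93.6% with overlaps of at least 50% of both peaks. FL peaks with a match made up 100% with a fold enrichment of at least 5, with a −log10 q of at least 5 or with flanks of 250 kb. They made up 85.9% with 150 bp searched and 61.5% with the narrower consensus CTAATAR on either strand, with means of 1.81 and 0.987 matches. FL peaks within reach of another made up 20.5% at 5 kb and 52.6% at 20 kb. No FL peak overlapped an ATAC-seq peak of cells expressing Satb1 when that had a −log10 q of at least 5, so that share was 0.

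No paired analysis was possible because there was 1 list per condition and no test between conditions. The windows hold few peaks, so intervals by gene are wide, and the depth behind each list is unknown. The gene starts and the unassembled stretch depend on the annotation and build used.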

Other observations

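A pair of neighbouring FL peaks 348 and 350 kb upstream of SLITRK5 (chr13:87972927-87976044) differed in the lists that shared them. The stronger, with 77.0% A/T, was in all 5 lists. The weaker, with 79.5% A/T and 4 matches, had 8.70 in the FL list, 9.90 with camptothecin and 15.5 with ICRF-193, and was in neither truncation list.

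At SLITRK6, an FL peak 252 kb upstream with 80.5% A/T had 15.0 in the FL list, 17.7 with camptothecin and 29.6 with ICRF-193, while N-C1 had 4.31 and ∆HD had no peak there. Both places were chosen after their values were seen.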
